A study of Mus musculus with 24 samples.

Results

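The cells described here are 3T3-L1 mouse pre-adipocytes that received a control siRNA (siCon) and were compared before and after the whole 48 h of hormonal induction. They were chosen by their labels, siCon at 0 h and siCon at 48 h, which takes 8 of the 24 RNA-seq libraries of the series, 4 at each time, and every one of the 9262 loci of the table was kept. Wells received 90000 cells and the siRNA, and 24 h later the cells were moved from medium with newborn calf serum to medium with fetal bovine serum, 172 nM insulin, 500 µM IBMX (an inhibitor of phosphodiesterases, which raises cAMP) and 500 nM dexamethasone (a synthetic glucocorticoid). The 0 h cells carried the same siCon and had not received the cocktail. The other groups, used here only where named, are siCon at 24 h and cells transfected with an siRNA against 14-3-3ζ (the product of Ywhaz) at 0 h, 24 h and 48 h, with 4 libraries each. There was no group kept for 48 h without the cocktail, so the hormones, the change of serum and the longer time since transfection cannot be told apart. 3T3-L1 is a single established fibroblast line, and the sources used, which speak in general of independent experiments, do not say for the sequencing whether the 4 libraries of a group were separate cultures, so a p-value here speaks only of the scatter among libraries, part or all of which may be technical.

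Adipogenesis in this line is a relay of transcription factors. Insulin, a glucocorticoid and raised cAMP switch on C/EBPβ and C/EBPδ, growth-arrested cells go through a short burst of division (mitotic clonal expansion), and PPARγ and C/EBPα then drive the genes for taking up, storing and releasing fat. Fibroblast features, such as contractile actin fibres and an interstitial matrix, are given up on the way.

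The values are FPKM, fragments scaled to the length of the transcript and to all mapped fragments of the library, which is a level per length and relative to the other RNAs of a library. A fold below is a ratio of mean FPKM. A log2 change is the difference of mean log2(FPKM + 1) at 48 h minus 0 h from limma, with its standard error (SE), and understates the change of low genes. A locus was called where limma's Benjamini-Hochberg adjusted p over all 9251 tested loci was under 0.05, and "rose" and "fell" below mean called. In bulk RNA, fewer cells of a type and less RNA per cell cannot be told apart.

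The change over the 48 h reached most of the table. Of the 9251 loci tested, 69.5% were called, 33.9% as higher at 48 h and 35.7% as lower, and the 4 libraries of each time did not overlap for 57.9%. Every count of rises and falls in a list below is to be read beside these shares. The median log2 change over all tested loci was -0.015, with an SD of 0.918 between loci. A change shown to exceed 2-fold (limma's treat test) was rarer and more often a fall: 3.12% of loci rose and 6.22% fell beyond 2-fold. The gap widened with size. Among called loci, 934 were more than 2-fold higher in mean FPKM and 1415 more than 2-fold lower, and past 16-fold there were 28 higher and 120 lower. Loci with no FPKM in any library of the lower time have no ratio and are not in these counts. The table lists only loci that differ somewhere in the series (the smallest ratio of the highest to the lowest group mean was 1.18), by a rule the sources used here do not state, so these shares do not extend to the whole transcriptome. The 95% interval of a locus' log2 change had a median half-width of 0.275.

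**Figure D1:**
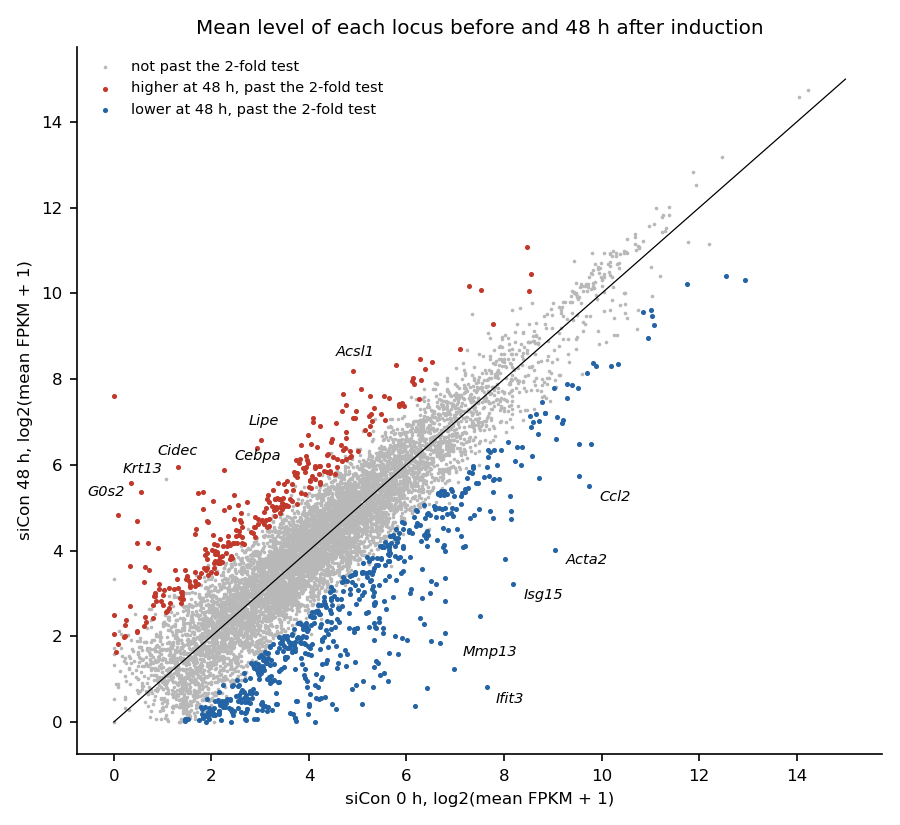
Mean level of each tested locus in siCon cells at 0 h (x axis) and 48 h (y axis), both as log2(mean FPKM + 1). Red and blue points are the 289 loci that rose and the 575 that fell beyond 2-fold by limma's treat test, and grey points are the rest, so that blue points outnumber red ones.

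Libraries of the same time resembled each other (Pearson's r across loci on the log scale 0.974 to 0.991) more than libraries of different times (0.864 to 0.890), and the first principal component, which separated the times, held 80.8% of the variance of the 8 libraries. The depth of each library is not in the table, summed FPKM ran from 515950 to 642146, and median-ratio size factors from 0.960 to 1.02. Replicates 1 and 3 stood apart from replicates 2 and 4 for many genes below, for some at both times and for others at only 1. Replicates 1 and 3 were higher for several fat genes. Replicates 2 and 4 were higher for Krt13 and Krt15 at 48 h, for Mmp13 at 0 h and for Col6a2 at both times. Col1a1 was higher in replicates 1 and 3 at both times. Using only libraries 1 and 3 of siCon at both times gave 5334 called loci, and only libraries 2 and 4 gave 5518, against 6434 with all 4. What the replicate numbers stand for was not given, and its part in the results was not tested.

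The master regulators of fat cell identity rose, and the factors that restrain them fell. Cebpa, which encodes C/EBPα (chromosome 7, 35904312-35906945 in NCBIM37, the build of the files), had 3.45, 3.20, 4.67 and 3.89 FPKM in the 4 libraries at 0 h and 69.1, 33.9, 66.6 and 60.1 at 48 h. The groups did not overlap, and the lowest library at 48 h, replicate 2, was still far above every library at 0 h. The mean rose 15.1-fold (log2 change 3.56, SE 0.25, adjusted p 3.77e-11, limma). Pparg, the nuclear receptor at the centre of the programme (chromosome 6, 115311239-115440419), was already high before induction, at 60.6, 42.8, 56.4 and 39.6 FPKM, and reached 136, 82.1, 150 and 106. Its rise was 2.38-fold (log2 change 1.22, SE 0.21, adjusted p 2.15e-05). Srebf1, a factor for lipid synthesis genes, rose 2.96-fold from 16.6 ± 3.10 to 49.2 ± 4.78 FPKM (mean ± SD, n = 4 here and below). Rxra, the partner of PPARγ on DNA, rose 2.15-fold, from 51.6 ± 1.84 to 111 ± 11.3. Klf5, an early activator of Pparg, went from 2.87, 2.87, 3.45 and 3.26 FPKM to 19.8, 51.6, 19.4 and 47.6, and replicates 2 and 4 were more than 2-fold above replicates 1 and 3 at 48 h only.

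Of the 26 adipogenic factors listed, 19 had a locus of their own that could be tested: 9 rose and 7 fell, beside 33.9% and 35.7% of all loci, with a median log2 change of 0.35. By role, 5 of 7 master and late factors rose and 1 fell, and all 4 tested inhibitors fell. These were Ddit3 (CHOP, which blocks C/EBP proteins; 172 ± 36.4 to 46.8 ± 7.93 FPKM), Klf2 (3.69 ± 1.28 to 1.38 ± 0.763), Gata2 (2.16 ± 0.793 to 0.858 ± 0.267) and Klf3. Of 8 tested early factors 4 rose and 2 fell. Klf4 fell 2.70-fold, from 20.1 ± 3.37 to 7.47 ± 0.340 FPKM. The glucocorticoid receptor Nr3c1, also counted among the early factors, fell 1.68-fold, from 28.5 ± 3.01 to 16.9 ± 1.03 FPKM. Cebpb and Nr1h3 shared a locus with another gene in the table and were not counted.

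Genes of the fat droplet and of fat breakdown gave some of the largest rises of the table. Cidec, which fuses droplets into larger ones (chromosome 6, 113374628-113385754), had 2.05, 0.560, 2.76 and 0.659 FPKM at 0 h and 59.9, 29.8, 100 and 52.3 at 48 h. Replicates 1 and 3 were the 2 highest at each time. The rise was 40.2-fold (log2 change 4.60, SE 0.43, adjusted p 3.12e-09). G0s2, an inhibitor of the first lipase of fat breakdown (chromosome 1, 195098355-195099382), was at 1.22, 0.257, 0.424 and 0 FPKM and then at 47.5, 16.8, 66.2 and 29.8, an 84.4-fold rise of the mean (log2 change 4.70, SE 0.44). That lipase, Pnpla2 (ATGL), rose as well, 5.17-fold from 37.3 ± 3.71 to 193 ± 43.6 FPKM, and so did its activator Abhd5, 3.70-fold from 81.8 ± 7.94 to 303 ± 14.2. Lipe, the hormone-sensitive lipase that takes the next step, varied little between libraries, with 7.79, 7.17, 7.11 and 6.43 FPKM before and 96.8, 74.9, 104 and 104 after (13.3-fold, log2 change 3.55, SE 0.18, adjusted p 1.63e-13). The droplet coat protein Plin2 moved the other way. It fell 2.81-fold, from 213, 199, 237 and 158 FPKM to 72.9, 59.9, 88.9 and 65.9, with no overlap. Plin3 fell as well, 2.14-fold from 92.9 ± 7.07 to 43.4 ± 5.91. Of 6 tested coat and fusion proteins 2 rose and 2 fell, while all 4 tested lipases and regulators rose. In all, 6 of 10 tested droplet and lipolysis genes rose and 2 fell, and the list's median log2 change of 1.94 stands beside -0.015 for all loci. Plin1, the coat protein of mature droplets, shared its locus with Pex11a and was not counted.

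Assembly of triglyceride rose along most of its steps, while genes of fatty acid uptake and binding were divided. Of 19 tested genes 14 rose and 4 fell, with a median log2 change of 1.18. In acyl transfer 7 of 8 rose and 1 fell, and in uptake and binding 3 of 6 rose and 2 fell. Slc27a1, of the uptake role, fell 2.86-fold from 18.9 ± 1.33 to 6.59 ± 0.957 FPKM. Fabp4, a main fatty acid carrier of fat cells (chromosome 3, 10204347-10208576), had 422, 281, 464 and 239 FPKM at 0 h and 2790, 941, 3701 and 1259 at 48 h. Replicates 1 and 3 were again the higher pair at each time, and the 6.18-fold rise of the mean (log2 change 2.46, SE 0.39, adjusted p 7.30e-06) had a wide spread at 48 h. Fabp5 rose 7.43-fold, from 154 ± 14.2 to 1144 ± 339 FPKM. Acsl1, which activates fatty acids with coenzyme A, went from 38.7, 22.7, 32.8 and 21.2 FPKM to 324, 178, 357 and 304, a 10.1-fold rise (log2 change 3.29, SE 0.27). Agpat9, an enzyme of the first acyl transfer to glycerol phosphate, rose 8.51-fold from 4.54 ± 2.09 to 38.6 ± 15.1, and Dgat1, which takes the last step, 3.82-fold from 37.9 ± 5.62 to 145 ± 44.0. Gpd1, which supplies glycerol phosphate, rose 21.5-fold but only to 5.47 ± 4.17 FPKM. Lpl, the lipase that frees fatty acids outside the cell and is itself a marker of differentiation, fell 2.32-fold, from 1004, 1246, 1261 and 1338 FPKM to 557, 367, 690 and 477. Cd36, the fatty acid translocase, was not called: it had 55.6, 11.3, 31.9 and 8.72 FPKM at 0 h and 113, 10.5, 103 and 16.8 at 48 h, so that replicates 1 and 3 stood several-fold above replicates 2 and 4 at both times (log2 change 0.86, 95% interval -0.52 to 2.24).

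Synthesis of fatty acids and of cholesterol did not move as a block. Of 16 tested genes of fatty acid synthesis 5 rose and 7 fell (median log2 change -0.18), beside 33.9% and 35.7% of all loci. Fasn, the synthase, rose 2.31-fold from 22.6 ± 2.59 to 52.2 ± 7.98 FPKM, and Scd1, the delta-9 desaturase, 4.06-fold from 39.5 ± 7.72 to 160 ± 18.1. The desaturases of polyunsaturated fatty acids fell instead: Fads2 from 104, 110, 108 and 116 FPKM to 33.9, 32.6, 31.1 and 26.6 (3.53-fold, adjusted p 8.75e-12), and Fads1 2.62-fold. In cholesterol synthesis and uptake 5 of 19 rose and 7 fell. Insig1, the anchor that holds SREBP proteins back, fell 1.53-fold. The sterol element word TCACNCCAC was found in 0 of 19 promoters of these genes (1.24% of all), and the C/EBP word TTGCNNAA in 1 of 13 promoters of the droplet list and 2 of 14 of the triglyceride list (10.8% of all).

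Some adipokine genes rose from very low levels. Retn (resistin) had at most 0.901 FPKM in a library at 0 h and between 14.6 and 35.6 at 48 h. Cfd (adipsin), a complement protease secreted by fat cells, went from 1.11, 0.232, 0.480 and 0.362 FPKM to 12.6, 6.05, 16.4 and 9.90, a 20.6-fold rise (log2 change 2.94, SE 0.32, adjusted p 3.58e-08). Adipoq (adiponectin) went from 2.02, 1.38, 4.79 and 0.597 FPKM to 31.1, 4.84, 38.2 and 12.7. Its libraries only just separated, the lowest at 48 h being close to the highest at 0 h, and the 9.90-fold rise had a log2 change of 2.64 with an SE of 0.52. Pltp, the phospholipid transfer protein, fell 9.03-fold, from 113, 160, 134 and 176 FPKM to 14.5, 17.8, 15.7 and 16.6. Of 12 tested adipokine and secreted protein genes 7 rose and 4 fell (median log2 change 0.80), while their summed level went from between 2636 and 3458 FPKM in the libraries at 0 h to between 1590 and 2206 at 48 h. That sum includes Lpl, an abundant gene whose fall is given above, so it does not describe the adipokines alone.

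Insulin signalling genes moved in both directions. Tbc1d4 (AS160), which controls the movement of glucose transporters, rose 6.52-fold from 1.18 ± 0.273 to 7.69 ± 1.59 FPKM. Grb14, an inhibitor of the insulin receptor, fell 5.63-fold from 27.3 ± 7.65 to 4.85 ± 1.09. The receptor Insr itself was not called (8.88 ± 1.82 and 7.19 ± 0.872), and the substrate Irs1 fell 1.95-fold. Over the list, 9 of 19 rose and 6 fell (median 0.33), 4 and 2 of them beyond 2-fold (3.12% and 6.22% of all loci). In the growth hormone and IGF axis 4 of 14 rose and 5 fell. Both counts stand beside 33.9% of all loci rising and 35.7% falling. The growth hormone receptor Ghr fell 1.91-fold, from 407 ± 80.5 to 213 ± 16.2 FPKM, and Igf1 was not called (26.5 ± 3.79 and 28.3 ± 1.77). Igfbp4, a binding protein for IGFs, had 99.9, 188, 151 and 205 FPKM before and 371, 1010, 462 and 1073 after, with replicates 2 and 4 the higher pair at each time.

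After 48 h in the cocktail, most of the listed glucocorticoid targets had risen. Of 17 tested glucocorticoid target genes 11 rose and 3 fell (33.9% and 35.7% of all loci), with a median log2 change of 0.99. Fkbp5, a chaperone of the glucocorticoid receptor and its classical target, had 16.8, 30.3, 23.3 and 30.0 FPKM at 0 h, a mean of 98.2 at 24 h, and 134, 208, 192 and 261 at 48 h (7.93-fold over 0 h, log2 change 2.94, SE 0.25, adjusted p 5.79e-10). Glul (glutamine synthetase) went from 56.2, 53.4, 52.3 and 54.8 FPKM to 272, 339, 245 and 431, and Tsc22d3 (GILZ) rose 4.50-fold from 21.2 ± 1.23 to 95.4 ± 28.1. The metallothioneins Mt1 and Mt2 rose from 897 ± 143 to 1973 ± 398 and from 361 ± 57.5 to 1063 ± 130 FPKM. Sgk1, another target, was not called (24.6 ± 2.64 and 21.5 ± 2.70).

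Of 17 tested genes of cAMP signalling 9 rose and 1 fell (median log2 change 0.36). Among the 6 tested target genes of that list 3 rose and 3 were not called, beside 33.9% of all loci rising. Nr4a1, an orphan receptor induced by cAMP, had 1.93, 3.12, 2.19 and 3.03 FPKM before, a mean of 54.1 ± 12.1 at 24 h and 19.0, 45.1, 16.7 and 41.4 at 48 h, where replicates 2 and 4 again lay above replicates 1 and 3 (11.9-fold over 0 h, log2 change 3.03, SE 0.22, adjusted p 7.16e-11). Pde4b, a phosphodiesterase that degrades cAMP, rose 6.77-fold from 4.82 ± 0.591 to 32.6 ± 8.13 FPKM, and 4 of 6 phosphodiesterases rose. Rgs2, a brake on G-protein signalling, rose 6.64-fold from 13.2 ± 4.49 to 87.8 ± 39.5. The 8-base cAMP response element TGACGTCA was found in 0 of 21 promoters of these genes, beside 1.79% of all promoters.

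The cell division programme rose almost without exception. Of 48 tested DNA replication genes 47 rose and none fell (median log2 change 1.22), and all 40 tested mitosis genes rose (median 1.83), beside 33.9% of all loci. Mcm5, a subunit of the replicative helicase, went from 13.3, 10.1, 13.9 and 11.6 FPKM to 59.6, 47.4, 65.7 and 46.1 (4.46-fold, log2 change 2.06, SE 0.12, adjusted p 1.06e-12). Rrm2, which makes deoxynucleotides, rose 8.00-fold from 15.9 ± 6.18 to 128 ± 22.4, and Tk1 (thymidine kinase) 5.51-fold from 12.3 ± 1.25 to 67.6 ± 9.34. In mitosis, Cdk1, the kinase that drives entry, went from 44.5, 34.3, 57.3 and 38.8 FPKM to 138, 132, 170 and 135, and Birc5 (survivin) from 14.3 ± 2.70 to 72.3 ± 13.2. The exception was Pold3, a subunit of DNA polymerase delta, with 5.42 ± 0.382 and 5.79 ± 1.69 FPKM. At 24 h all 48 and all 40 lay above the mean of both ends (called in limma on that contrast, beside 21.2% of all loci above and 23.4% below). Cdk1 was at 241 ± 44.7 FPKM at 24 h, Mcm5 at 69.6 ± 6.04, and the mitotic kinesin Kif23, with 5.17 ± 0.810, 27.6 ± 5.43 and 9.96 ± 1.61 at 0, 24 and 48 h, had come most of the way back down. The proliferation marker Mki67 had 3.31 ± 0.457, 18.0 ± 1.89 and 10.1 ± 1.82.

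The promoters of these 2 lists, like those of several other lists, were searched for words known from such genes. For each of these lists the 2 members with a match and the smallest p are printed. The E2F words TTTGGCGC, TTTCGCGC, TTTCCCGC and TTTGCCGC, searched on both strands and able to overlap, were found in 15 of 45 promoters of replication genes (33.3%, beside 2.26% of all 32851 promoters). Each promoter is the 300 bases from 250 before to 50 after the start of a RefSeq gene in GRCm38.p6, written along the gene's own strand, and capitals mark the words. Mcm5 lies on the plus strand at chr8:75109259-75109558, and Mcm6, another helicase subunit, on the minus strand at chr1:128359656-128359955.
Mcm5: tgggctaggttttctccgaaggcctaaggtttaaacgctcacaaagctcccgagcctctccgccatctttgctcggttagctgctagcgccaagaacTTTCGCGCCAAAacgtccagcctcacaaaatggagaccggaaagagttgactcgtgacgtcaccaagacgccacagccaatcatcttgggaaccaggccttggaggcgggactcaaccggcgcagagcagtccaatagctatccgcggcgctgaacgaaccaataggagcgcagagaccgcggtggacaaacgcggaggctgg
Mcm6: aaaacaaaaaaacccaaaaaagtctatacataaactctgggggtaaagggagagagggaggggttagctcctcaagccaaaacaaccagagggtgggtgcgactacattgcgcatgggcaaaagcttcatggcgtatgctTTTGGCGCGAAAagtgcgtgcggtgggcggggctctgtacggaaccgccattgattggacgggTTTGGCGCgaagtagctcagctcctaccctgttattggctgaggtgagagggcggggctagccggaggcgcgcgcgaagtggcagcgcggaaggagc
Mcm5 has 2 overlapping words of opposite strand, and Mcm6 has such a pair and a further word nearer the start. Mcm6 rose by 1.60 on the log2 scale. The cell cycle homology word TTTGAA, on either strand, was found in 27 of 37 promoters of mitosis genes (73.0%, beside 17.9% of all promoters). It is shown in Bub1b, a spindle checkpoint kinase (plus strand, chr2:118597961-118598260, log2 change 2.22), and in Cdc20, the activator of the anaphase-promoting complex (minus strand, chr4:118437294-118437593, log2 change 2.00).
Bub1b: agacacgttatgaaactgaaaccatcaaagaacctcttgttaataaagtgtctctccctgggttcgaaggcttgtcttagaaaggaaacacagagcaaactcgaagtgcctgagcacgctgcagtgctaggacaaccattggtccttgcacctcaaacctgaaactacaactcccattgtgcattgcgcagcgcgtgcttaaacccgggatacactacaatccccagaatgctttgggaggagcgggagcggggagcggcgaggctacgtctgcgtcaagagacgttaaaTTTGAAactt
Cdc20: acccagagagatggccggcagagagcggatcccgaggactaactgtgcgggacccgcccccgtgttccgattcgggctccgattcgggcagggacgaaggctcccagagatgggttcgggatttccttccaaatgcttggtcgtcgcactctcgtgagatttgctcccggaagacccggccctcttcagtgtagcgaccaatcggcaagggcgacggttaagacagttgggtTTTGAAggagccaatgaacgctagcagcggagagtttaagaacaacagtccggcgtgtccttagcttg
These matches describe the letters of the windows and are not evidence of binding.

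The brakes and early switches of the cycle moved differently from its machinery. Of 21 tested G1 regulators and CDK inhibitors 5 rose and 11 fell (median log2 change -0.29). Myc rose 4.39-fold, from 21.5, 21.6, 17.6 and 23.3 FPKM to 95.8, 78.5, 105 and 89.5 (adjusted p 8.68e-13). Cdkn2a, which encodes p16 and p19ARF, fell 2.66-fold from 627 ± 63.6 to 236 ± 32.4 FPKM, and Cdkn1a (p21) 1.28-fold with overlapping libraries. Cyclin D1 and cyclin D2 genes Ccnd1 and Ccnd2 fell 1.31-fold and 1.38-fold, with overlapping libraries as well.

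Ribosome assembly genes rose in nearly all tested members and genes of the respiratory chain in most. Of 26 tested ribosome biogenesis genes 25 rose and none fell, with a median log2 change of 0.97. Dkc1, the pseudouridine synthase dyskerin, rose 3.33-fold from 15.7 ± 2.18 to 52.3 ± 14.6 FPKM, and Nolc1, a nucleolar chaperone, 2.82-fold from 38.9 ± 5.74 to 110 ± 27.7. Utp20 was the member not called (4.87 ± 0.487 and 5.38 ± 1.13). In the respiratory chain and ATP synthase 41 of 59 rose and 2 fell, with none beyond 2-fold in the treat test and a median log2 change of 0.36. Cycs (cytochrome c) rose 2.84-fold, from 66.8, 51.9, 93.0 and 56.2 FPKM to 174, 143, 249 and 196. Cox7a1, the muscle and brown fat form of a complex IV subunit, fell 4.47-fold from 4.21 ± 1.61 to 0.943 ± 0.774 (log2 change -1.47), a call that was lost with libraries 2 and 4 only (-1.15). Genes encoded by mitochondrial DNA were not analysed here.

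In the TCA cycle, β-oxidation and branched-chain amino acid breakdown 37 of 47 rose and 4 fell (median log2 change 0.63). All 6 genes of pyruvate entry and 12 of 13 of the TCA cycle rose. Pcx, pyruvate carboxylase, rose 3.35-fold from 71.2, 69.5, 74.8 and 66.2 FPKM to 221, 200, 267 and 256, and Idh3a 2.84-fold from 46.0 ± 3.85 to 130 ± 27.7. Acadm, an acyl-CoA dehydrogenase, rose 2.68-fold, while Cpt1a, the gate for fatty acids into mitochondria, fell 1.70-fold from 45.1 ± 8.95 to 26.5 ± 4.22. Peroxisomal genes were divided (5 up and 5 down of 17), with Scp2 up 2.28-fold. Of 23 genes of glycolysis and the hypoxia response 1 rose and 6 fell. Adm, the hypoxia gene for adrenomedullin, fell 11.6-fold from 25.8 ± 3.45 to 2.21 ± 0.225 FPKM, and Hk2 (hexokinase) was not called.

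**Figure D2:**
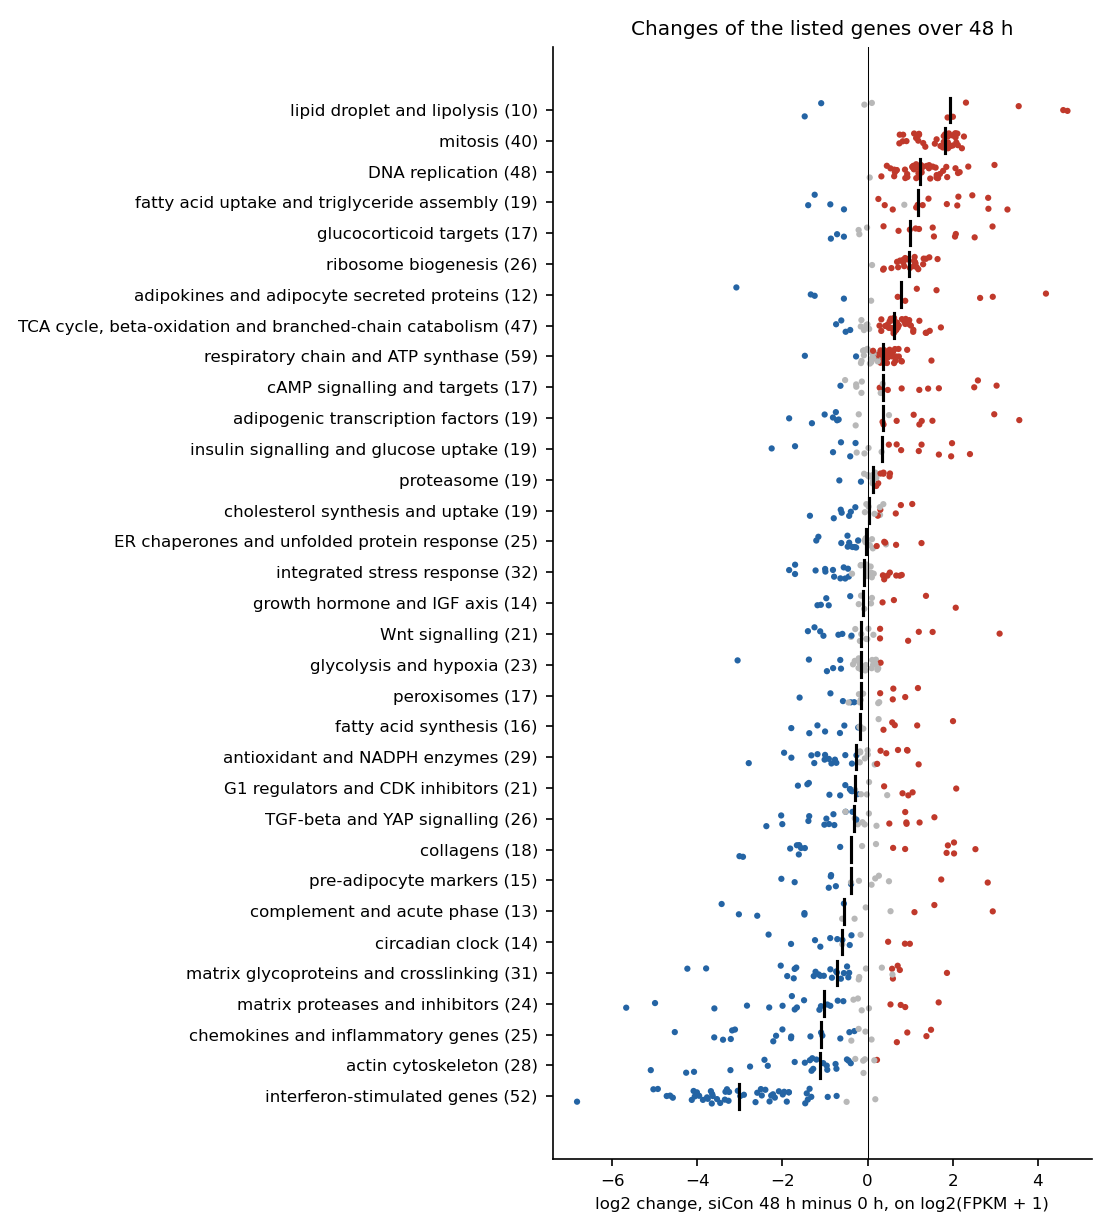
Log2 change in siCon cells from 0 h to 48 h (x axis, log2(FPKM + 1) scale) of every tested member of 33 lists (1 row each). Red points rose, blue points fell, grey points were not called, and the black bar is the list's median, which runs from -3.02 for interferon-stimulated genes to 1.94 for droplet and lipolysis genes.

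Of all lists the one with the lowest median was that of interferon-stimulated genes, the antiviral genes that type I interferon or cytosolic nucleic acid switches on. Of 52 tested, 50 fell and none rose, 45 of them beyond 2-fold (beside 35.7% and 6.22% of all loci), and the median log2 change was -3.02. The siCon cells began with these genes high: their summed FPKM was 5762 to 6808 in the libraries at 0 h and 1854 to 2406 at 48 h. Ifit3, an antiviral effector (chromosome 19, 34658021-34663221), had 195, 227, 163 and 215 FPKM before and 0.604, 0.738, 0.828 and 0.896 after, which is 261-fold lower (log2 change -6.82, SE 0.28, adjusted p 5.27e-15). Isg15, the ubiquitin-like modifier, went from 284, 333, 243 and 298 FPKM to 5.79, 5.66, 13.5 and 8.31, and Usp18, which removes it, from 102 ± 12.7 to 2.57 ± 1.44. Further falls of the same kind were in Ifit1 (34.1-fold), Oasl2 (32.9-fold) and Zbp1 (51.4-fold), and Ubd, a ubiquitin-like protein induced by interferon γ and TNF, fell 100-fold from 33.2 ± 8.25 to 0.331 ± 0.282. The apolipoprotein genes Apol9a and Apol9b fell 37.5-fold and 51.3-fold, but they are close copies of each other whose fragments may be split or shared, as may those of the Ifit and Oas families.

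The median fall was smaller among sensors and factors (log2 change -2.31) and in antigen presentation (-1.93) than among antiviral effectors (-3.34). Irf7, the factor that amplifies the response, fell 23.9-fold from 40.2 ± 6.82 to 1.69 ± 0.623 FPKM. H2-K1, a class I histocompatibility gene, fell 3.90-fold from 541 ± 66.4 to 139 ± 19.4. The 2 members not called were Ifitm2 (668 to 872 FPKM at 0 h and 748 to 992 at 48 h) and Samhd1 (47.0 to 62.6 and 24.7 to 55.3), with overlapping libraries in both. At 24 h, 42 of the 52 lay below the mean of both ends (beside 23.4% of all loci), and Ifit3 was at 6.29 ± 2.87 at 24 h. The cells at 0 h had been transfected 24 h before and those at 48 h longer ago, so this fall cannot be told apart from the passing of a response to transfection.

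The interferon response element with the core GAAANNGAA (N, any base; searched on both strands, overlaps included) was found in 21 of 41 promoters of these genes (51.2%, beside 8.56% of all). It is shown in capitals in Ifit3 (plus strand, chr19:34583279-34583578, GRCm38.p6) and in Gbp7, a guanylate-binding GTPase (plus strand, chr3:142530086-142530385, log2 change -2.90). Ifit3 holds 3 copies and Gbp7 holds 1.
Ifit3: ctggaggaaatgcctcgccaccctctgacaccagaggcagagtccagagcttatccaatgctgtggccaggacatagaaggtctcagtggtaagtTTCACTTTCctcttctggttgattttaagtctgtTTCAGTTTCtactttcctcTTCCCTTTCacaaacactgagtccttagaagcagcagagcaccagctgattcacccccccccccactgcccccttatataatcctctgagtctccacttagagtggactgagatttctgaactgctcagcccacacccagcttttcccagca
Gbp7: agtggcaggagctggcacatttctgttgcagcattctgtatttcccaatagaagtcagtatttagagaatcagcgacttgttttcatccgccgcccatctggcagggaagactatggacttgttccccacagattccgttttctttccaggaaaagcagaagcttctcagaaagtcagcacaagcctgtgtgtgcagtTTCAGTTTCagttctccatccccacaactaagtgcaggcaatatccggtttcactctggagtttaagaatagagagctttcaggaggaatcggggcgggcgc

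Chemokines fell with them. Of 11 tested chemokines 10 fell, and of the 25 chemokine and inflammatory genes 4 rose and 17 fell (median log2 change -1.09). Ccl2 (MCP-1), which attracts monocytes (chromosome 11, 81849073-81850955), had 1039, 756, 922 and 690 FPKM before and 70.8, 23.0, 70.2 and 13.5 after. Replicates 1 and 3 were the higher pair at both times, and the fall of the mean was 19.2-fold (log2 change -4.53, SE 0.38, adjusted p 5.65e-10). Cxcl10, an interferon-induced chemokine, fell 14.2-fold from 39.6 ± 14.3 to 2.79 ± 1.16. Cxcl12 had 2150 ± 360 FPKM at 0 h, 284 ± 70.0 at 24 h and 615 ± 56.1 at 48 h, a dip with partial return. Vcam1, an adhesion molecule, fell 4.56-fold from 115, 137, 108 and 132 to 25.1, 32.0, 26.0 and 24.7. Among complement and acute phase genes 3 of 13 rose and 6 fell. Saa3 (serum amyloid A3), the most abundant locus with a symbol at 0 h, fell from 5270, 9626, 6445 and 10239 FPKM to 1285, 1126, 1362 and 1286 (6.24-fold), and C3 2.79-fold from 772 ± 104 to 277 ± 46.1.

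The fibroblast matrix and the enzymes that cut it were reduced. Of 31 tested matrix glycoprotein and crosslinking genes 21 fell and 5 rose (median log2 change -0.72), and of 24 matrix proteases and inhibitors 16 fell and 4 rose (median -1.02). Mmp13 (collagenase 3; chromosome 9, 7272514-7283333) went from 82.8, 144, 94.3 and 180 FPKM to 1.31, 1.24, 1.35 and 1.59, which is 91.4-fold lower (log2 change -5.67, SE 0.23, adjusted p 2.78e-15). Replicates 2 and 4 were the higher pair at 0 h, but at 48 h all 4 libraries were alike. Mmp3 (stromelysin 1) fell 39.9-fold from 182 ± 93.8 to 4.56 ± 2.36, and Mmp14, a membrane-bound protease, 3.13-fold from 458 ± 23.5 to 146 ± 29.2. The inhibitor Timp2 fell 2.77-fold too. Mamdc2, which encodes a secreted proteoglycan, was among the sharpest falls, from 90.5, 75.9, 93.1 and 80.3 FPKM to 0.743, 0.550, 0.738 and 0.851 (118-fold, log2 change -5.64, SE 0.12, adjusted p 2.02e-20). Thrombospondins Thbs1 and Thbs2 fell 19.8-fold and 14.2-fold, Ogn (osteoglycin) 37.4-fold, fibronectin (Fn1) 2.00-fold from 471 ± 23.0 to 235 ± 56.3, and Lox, the collagen crosslinking enzyme, 3.33-fold from 629 ± 48.9 to 189 ± 24.4.

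Collagens did not follow 1 direction: 7 of 18 rose and 9 fell, beside 33.9% and 35.7% of all loci. The fibrillar Col1a1 fell 2.95-fold, from 1789, 1409, 1921 and 1632 FPKM to 705, 502, 731 and 353, and the basement membrane chain Col4a5 9.67-fold from 42.1 ± 3.06 to 4.36 ± 0.303. The beaded-filament chains rose: Col6a2 from 136, 208, 165 and 228 FPKM to 750, 1421, 917 and 1253 (5.88-fold, adjusted p 1.12e-08), and Col6a1 3.74-fold from 375 ± 67.1 to 1405 ± 350. Col15a1, of the basement membrane zone, rose 5.20-fold from 2.77 ± 1.01 to 14.4 ± 3.86. Col3a1 was not called (1022 ± 314 and 1154 ± 268).

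Contractile actin genes fell with the matrix. Of 28 tested actin cytoskeleton genes 22 fell and 1 rose, with a median log2 change of -1.12. Acta2 (smooth muscle α-actin; chromosome 19, 34315580-34329826) had 561, 498, 558 and 495 FPKM before and 18.8, 10.8, 20.9 and 10.2 after, 34.8-fold lower (log2 change -5.09, SE 0.22, adjusted p 1.21e-14). Tagln (transgelin) fell 26.3-fold from 41.4 ± 2.72 to 1.58 ± 0.653, Myl9, a regulatory myosin light chain, 27.7-fold from 56.0 ± 5.05 to 2.02 ± 0.650, and Tpm1 (tropomyosin) 5.16-fold. Cytoplasmic β-actin fell by much less: Actb went from 1336, 1426, 1449 and 1391 FPKM to 978, 1101, 1030 and 1009, which is 1.36-fold. The CArG box, the serum response element core of CC, 6 bases that are A or T, and GG (it reads the same way on both strands), was found in 7 of 27 promoters of these genes (25.9%, beside 1.63% of all). It is in capitals in Cnn2, which encodes calponin 2 (plus strand, chr10:79988350-79988649, GRCm38.p6, log2 change -2.42), and in Myl9 (plus strand, chr2:156775214-156775513, log2 change -4.26).
Cnn2: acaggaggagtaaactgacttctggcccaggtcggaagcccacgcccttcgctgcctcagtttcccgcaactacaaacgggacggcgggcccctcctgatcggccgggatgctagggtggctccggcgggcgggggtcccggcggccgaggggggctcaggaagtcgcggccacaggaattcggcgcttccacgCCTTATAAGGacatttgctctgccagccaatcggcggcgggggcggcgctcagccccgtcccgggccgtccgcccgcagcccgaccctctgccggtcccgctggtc
Myl9: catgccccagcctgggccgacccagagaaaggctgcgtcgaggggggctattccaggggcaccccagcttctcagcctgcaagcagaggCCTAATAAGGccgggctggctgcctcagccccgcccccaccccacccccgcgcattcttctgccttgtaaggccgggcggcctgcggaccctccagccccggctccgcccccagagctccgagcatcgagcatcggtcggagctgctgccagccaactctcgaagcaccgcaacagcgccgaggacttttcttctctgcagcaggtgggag
In the TGF-β and YAP list 6 of 26 rose and 13 fell, and Ctgf, a target of both, fell 23.3-fold from 5.59 ± 2.18 to 0.240 ± 0.270 FPKM. That ratio rests on a very low level at 48 h, and the lowest log2 change among the tested targets was -2.38.

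**Figure D3:**
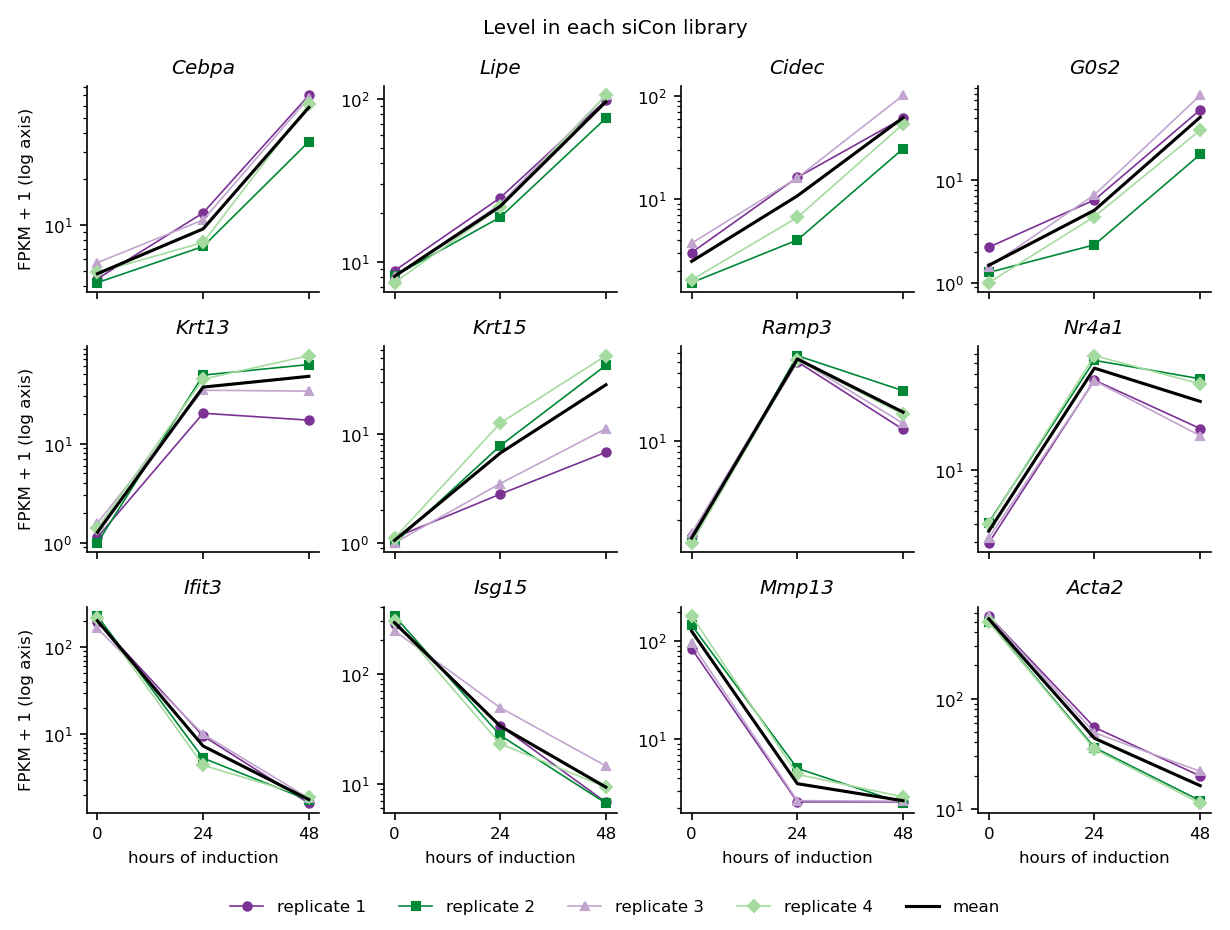
FPKM + 1 (y axis, log scale) of 12 genes in each of the 4 siCon libraries at 0, 24 and 48 h (points, 1 colour per replicate number) with the mean of each time (line). Cebpa, Lipe, Cidec and G0s2 climb through both days, Ramp3 and Nr4a1 are highest at 24 h, the falling genes Ifit3, Isg15, Mmp13 and Acta2 lose most in the first day, and replicates 2 and 4 lie above 1 and 3 for Krt13 and Krt15 at 48 h.

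A pair of keratins and several genes of secreted proteins also rose. Krt13, a keratin of stratified epithelia, had at most 0.584 FPKM in a library at 0 h and 16.2, 61.2, 32.6 and 75.5 at 48 h. Krt15, its neighbour on chromosome 11 (99993072-99997263, beside 99978641-99982880 for Krt13), was listed at 0.117, 0, 0 and 0.104 FPKM and then at 5.83, 42.2, 10.3 and 51.9. Replicates 2 and 4 were higher for both, and the log2 change of Krt15 was 3.05 with libraries 1 and 3 only and 5.51 with libraries 2 and 4 only. Of the 5 tested keratin and epithelial genes 2 rose and 3 fell, and Krt7 was among the falls (3.17 ± 1.88 to 0.139 ± 0.210). Wfdc12, a small secreted protease inhibitor, went from 0.777, 0.858, 0 and 0.893 FPKM to 9.91, 25.2, 8.28 and 25.5, and the ligand Wnt4 from 0.127, 0.298, 0.348 and 0.231 to 4.70, 18.0, 5.73 and 17.1, both with replicates 2 and 4 higher at 48 h. Prg4 (lubricin) rose 15.6-fold, from 2.57 ± 0.693 to 40.0 ± 17.0, Gdf10, a ligand of the TGF-β family, 17.7-fold from 0.879 ± 0.0603 to 15.6 ± 5.94, and Arxes2, a gene implicated in adipogenesis that has a near-identical copy beside it on the X chromosome, 17.0-fold from 2.32 ± 1.20 to 39.6 ± 8.14.

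Signalling and stress lists were mixed, and their counts stand beside 33.9% of all loci rising and 35.7% falling. In Wnt signalling 6 of 21 rose and 7 fell, with the inhibitor Sfrp2 down 2.77-fold. In hedgehog signalling 4 of 10 rose and 3 fell, none beyond 2-fold, and the rises of Gli1 and Sufu lost their calls without siCon 48 h replicate 2 (log2 change 0.55) and replicate 3 (0.20) respectively. The integrated stress response list had 7 rises and 13 falls of 32: 5 of its 7 factors fell, among them Trib3 from 43.4, 50.5, 46.4 and 51.5 FPKM to 15.0, 12.4, 18.3 and 11.2 (3.37-fold), while Asns (asparagine synthetase) was not called (119 ± 7.38 and 132 ± 8.65). The C/EBP-ATF word TGATGNAA was found in 13 of 31 promoters of this list (41.9%, beside 3.97% of all). Of 29 antioxidant and NADPH genes 7 rose and 15 fell. Gstm1, a glutathione transferase, fell 7.30-fold from 109 ± 8.06 to 15.0 ± 1.63, and Hmox1 (haem oxygenase 1) 3.90-fold from 327 ± 25.0 to 84.0 ± 13.7. ER chaperones (5 up and 10 down of 25) and the proteasome (7 up and 2 down of 19) had medians of -0.047 and 0.13. In the circadian clock 9 of 14 fell and 3 rose. Dbp, a clock output gene, had 19.8 ± 2.15, 1.67 ± 0.551 and 3.17 ± 0.531 FPKM at 0, 24 and 48 h, and Per1, which glucocorticoids also induce, rose 2.09-fold.

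Comparing both ends does not show all of the movement between them. Of the 2817 loci not called between 0 h and 48 h, 885 were called at 24 h against the mean of both ends. Over all 9251 tested loci, 4120 were called on that contrast. Kitl (stem cell factor) had 17.1, 16.4, 17.7 and 16.5 FPKM at 0 h, 3.34 ± 0.907 at 24 h, and 16.5, 14.7, 16.6 and 16.7 at 48 h, so a 48 h comparison alone misses a dip and return (log2 change at 48 h -0.07, 95% interval -0.40 to 0.27). Il11, a cytokine of the IL-6 family, had 0.451 ± 0.169, 31.1 ± 13.9 and 2.88 ± 0.987 FPKM, and Ramp3, which pairs with the calcitonin-like receptor, 0.384 ± 0.123, 52.0 ± 2.80 and 17.0 ± 6.80. Spon2, Fosl1 and Il1rl1 belong to the same group of 24 h peaks, and Aldh1a7 (5.61 ± 1.08, 0.426 ± 0.109 and 11.3 ± 3.29), Agt (80.5 ± 28.8, 24.3 ± 6.58 and 177 ± 53.7), Svep1 and Ccl6 to the dips. In glycolysis and hypoxia genes 14 of 23 were above the mean of both ends at 24 h, beside 21.2% of all loci. The TCA cycle and oxidation list had 25 of 47 below, beside 23.4% of all loci. The contrast at 24 h and the change over 48 h share the 0 h and 48 h libraries.

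**Figure D4:**
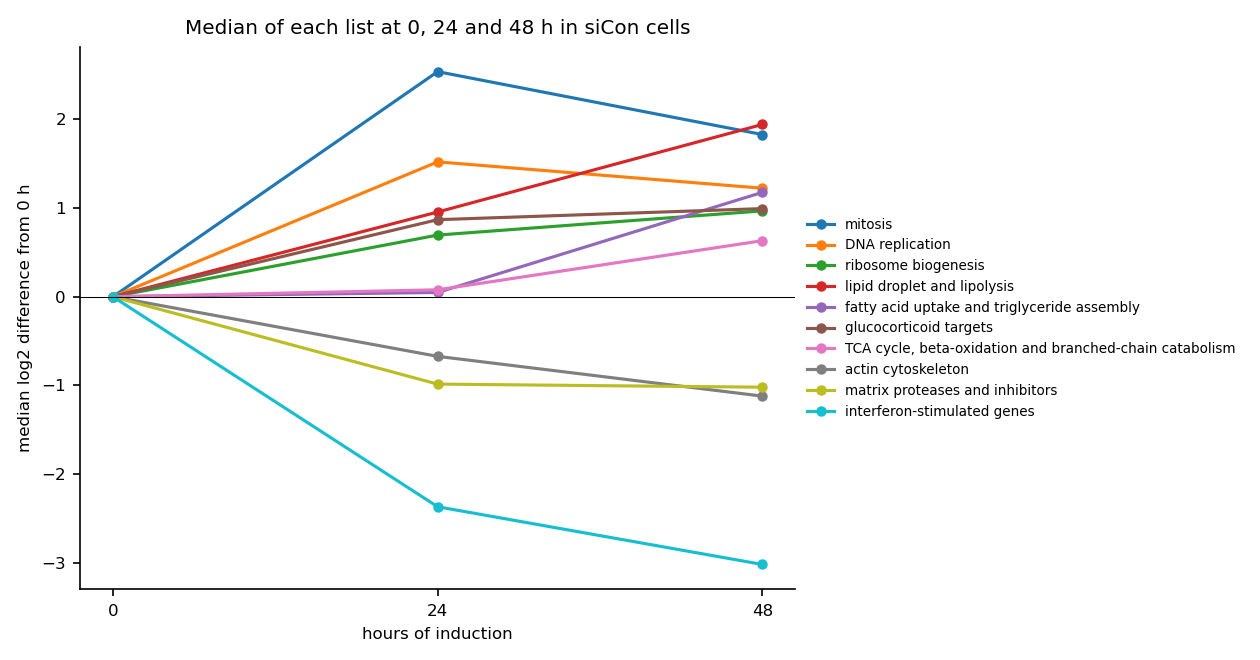
Median log2 difference from 0 h (y axis, log2(FPKM + 1) scale) of the tested members of 10 lists in siCon cells at 0, 24 and 48 h (x axis, hours). DNA replication (1.52 at 24 h, 1.22 at 48 h) and mitosis (2.54, then 1.83) peak at 24 h, interferon-stimulated genes reach -2.37 by 24 h and -3.02 by 48 h, and fatty acid uptake and triglyceride assembly rises almost wholly in the second day (0.048, then 1.18).

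Cell type markers moved from those of pre-adipocytes towards those of adipocytes, in part. Of 9 tested adipocyte markers 7 rose, Lpl fell and Cd36 was not called. Of 7 tested pre-adipocyte and fibroblast markers none rose and 5 fell: Pdgfrb fell 4.13-fold from 80.7 ± 3.51 to 19.5 ± 4.73 FPKM, Dlk1 (Pref-1), the inhibitor of adipogenesis that marks pre-adipocytes, only 1.30-fold from 807 ± 102 to 620 ± 110 with overlapping libraries, and Thy1 was not called. In a longer pre-adipocyte list, which shares members with that one, 2 of 15 tested rose and 7 fell, and Cd24a, a surface protein of adipocyte progenitors, rose 16.4-fold from 0.954, 0.522, 0.540 and 0.569 FPKM to 11.8, 9.91, 10.2 and 10.5 (log2 change 2.82, SE 0.17). The other that rose was Pi16 (log2 change 1.73). Both tested leukocyte markers (Cd14 and Lyz2), the endothelial Vwf and the muscle gene Des fell, and no tested marker of these types rose. The epithelial marker tested, Krt13, did rise (log2 change 5.01), and of 3 cartilage and bone markers Alpl, an alkaline phosphatase, rose from 2.78 ± 1.79 to 24.6 ± 17.2 FPKM (log2 change 2.67), Runx2 fell and Sox9 was not called. Ppargc1a, a coactivator high in brown fat, was not called (4.17 ± 1.30 and 2.65 ± 1.19, log2 change -0.53), but was lower and called without siCon 0 h replicate 2 (-0.64) or without 48 h replicate 3 (-0.71). Of 5 tested brown and beige fat genes 1 rose and 2 fell. Slc2a4, Lep, Aqp7 and Klf15 were not analysed here.

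Of 13 tested genes commonly used to normalise expression 7 rose, 3 fell and 3 were not called, beside 69.5% of all loci called. Hprt, to which the study set its own qPCR values, went from 66.4, 54.9, 52.3 and 51.3 FPKM to 118, 71.3, 102 and 85.2, a 1.67-fold rise (log2 change 0.71, 95% interval 0.45 to 0.98). Gapdh had 2547 ± 80.7 and 2928 ± 283 FPKM (log2 change 0.20, interval -0.01 to 0.41) and Polr2a 40.1 ± 8.31 and 39.9 ± 5.01 (0.0046, interval -0.33 to 0.34), and the third not called was Pgk1. Tfrc, the transferrin receptor, rose 3.05-fold and Rplp0 1.84-fold. Since FPKM is relative to all other RNAs, these shifts are not changes per cell. Among the 14-3-3 genes 4 of 5 tested rose, none beyond 2-fold: Ywhaz had 182, 158, 168 and 154 FPKM at 0 h and 271, 254, 253 and 261 at 48 h (1.57-fold, log2 change 0.65, SE 0.19, adjusted p 3.65e-03), and Ywhab rose 1.42-fold. The call of Ywhaq was lost when single libraries were left out (log2 change 0.14 without siCon 48 h replicate 1), and that of Ywhaz with libraries 1 and 3 only (0.58).

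The same 48 h were smaller for many of these genes when 14-3-3ζ was knocked down. In those cells Ywhaz itself was at 29.5 FPKM (mean) at 0 h and 39.6 at 48 h. The change over 48 h differed between si14-3-3ζ and siCon for 17.9% of loci by limma's interaction term (1659, of which 855 had a lower and 804 a higher change with the knockdown). With the replicate number as a block it was 2799. The rise of many fat genes was smaller: 12 of 19 genes of fatty acid uptake and triglyceride assembly and 6 of 10 of the droplet list had a lower change, as had 34 of 59 respiratory chain genes. Cebpa rose from a mean of 4.08 to 10.8 FPKM with the knockdown and from 3.80 to 57.4 without it (difference of log2 changes -2.47, adjusted p 1.1e-04), and Lipe from 8.37 to 17.3 against 7.12 to 94.8 (-2.67, adjusted p 1.7e-06). Both division lists kept their direction with the knockdown but with 24 members each at a lower change (medians 0.677 and 1.09 against 1.22 and 1.83). For 32 of the 52 interferon-stimulated genes the fall was smaller with the knockdown. Ifit3 also began lower: it went from 63.2 to 0.849 FPKM there and from 200 to 0.766 in siCon. Other named members began lower too: Isg15 (156 beside 290 FPKM in siCon), Usp18 (68.9 beside 102), Ifit1 (65.6 beside 110), Oasl2 (52.0 beside 89.4) and Zbp1 (16.1 beside 38.7). Ubd, which is not in the list, began higher (55.4 beside 33.2). A smaller fall cannot be told apart here from a lower start. Of 17 glucocorticoid targets 1 had a lower change with the knockdown and 2 a higher, and of 17 genes of cAMP signalling 2 had a lower and none a higher, neither share being above the 17.9% of all loci. Fkbp5 rose from 36.0 to 248 FPKM with the knockdown beside 25.1 to 199 in siCon (difference -0.22, adjusted p 0.70). Klf5 (6.17 to 49.0 beside 3.11 to 34.6) and Nr4a1 (2.87 to 21.9 beside 2.57 to 30.5) were not called in this comparison either, which does not show that they responded alike. These counts describe the lists and were not tested against each other.

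**Figure D5:**
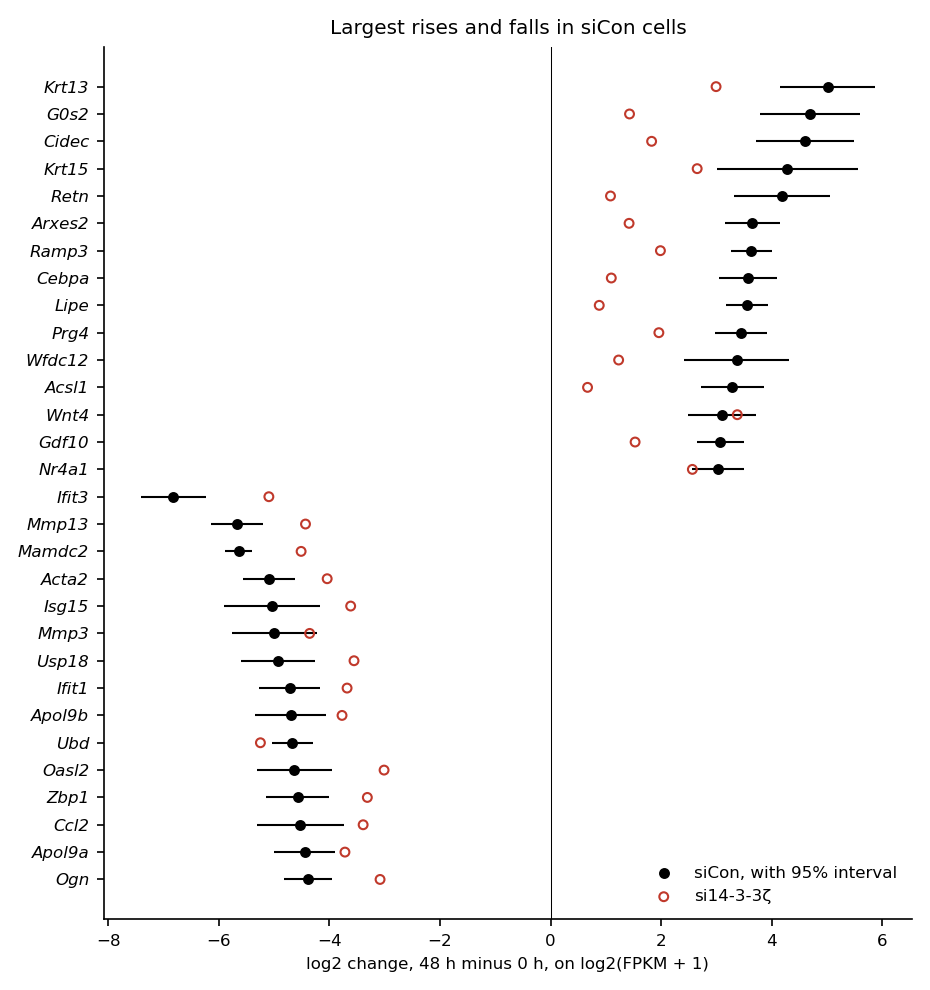
Log2 change from 0 h to 48 h (x axis, log2(FPKM + 1) scale) of the 15 largest rises and 15 largest falls among named loci, in siCon cells (filled points, bars are 95% intervals) and in si14-3-3ζ cells (open red points). All 30 keep their direction with the knockdown, and the change is closer to 0 there for all but Wnt4 and Ubd, such as G0s2 (4.70 in siCon, 1.43 with the knockdown) and Ifit3 (-6.82 and -5.09). The genes were picked by their siCon change, a choice that favours a smaller change in the other cells.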

How the data were processed

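RNA of siCon 3T3-L1 cells at 0 h and 48 h (4 libraries each) was sequenced as paired reads of 150 bases; the sources give a number of reads without saying whether it is per library, and the table holds no counts, so no counting interval could be had and the spread between libraries sets the precision. The deposited values are FPKM, which the authors made with TopHat2 2.0.11 and Cufflinks 2.2.0 on NCBIM37, with no replicates pooled. Of 9262 loci, 9251 with at least 1 FPKM in at least 4 of the 24 libraries were tested and 11 were not.

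Log2(FPKM + 1) values were fitted with limma 3.58.1 in R 4.3.3 (6 group means, all 24 libraries, moderated variances with a mean trend). Calls needed a Benjamini-Hochberg adjusted p under 0.05 over all tested loci, and treat tested changes beyond 2-fold. The same fit gave the contrast of 24 h with the mean of both ends and the interaction with knockdown. The script was tested on simulated data.

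Same-numbered libraries at 0 h and 48 h deviated together from their group means (correlations across loci 0.502, 0.317, 0.179 and 0.295), so a fit with the number as a block was among the alternatives, with another pseudocount, filters, scalings, fewer groups, no trend and each library left out. Named were the 15 largest rises and falls among called, non-overlapping loci with 1 symbol, a higher mean of at least 5 FPKM and no predicted gene, clone or pseudogene; up to 4 members per list by smallest p; other members by role; the 10 largest each way at 24 h; and Ywhaz. Members and lists were chosen with earlier results of these data known. Loci with several symbols (576) or none (136) entered the fit but no list. Positions are from GENCODE on NCBIM37, promoters from RefSeq on GRCm38.p6 (32851 windows), matched by symbol. Figures used matplotlib 3.10.9. Some named genes are not reported here.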

Additional observations from a re-analysis of the deposited data

Results flagged for a closer look

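For 20 of the 30 largest changes the change over 48 h differed between si14-3-3ζ and siCon cells by limma's interaction term (adjusted p under 0.05 over all loci), beside 17.9% of all loci. The 30 were picked by their siCon change, which also enters this difference. The choice itself therefore favours a smaller change with the knockdown. Among the rises, the difference of log2 changes, si14-3-3ζ minus siCon, was -2.02 for Krt13, -3.27 for G0s2, -2.77 for Cidec, -3.11 for Retn, -2.23 for Arxes2, -1.65 for Ramp3, -2.47 for Cebpa, -2.67 for Lipe, -1.48 for Prg4, -2.13 for Wfdc12, -2.62 for Acsl1 and -1.54 for Gdf10, a smaller rise with the knockdown in each. Among the falls it was 1.73 for Ifit3, 1.24 for Mmp13, 1.13 for Mamdc2, 1.05 for Acta2, 1.37 for Usp18, 1.63 for Oasl2, 1.26 for Zbp1 and 1.30 for Ogn, a smaller fall in each. All of these but Acta2 (675 beside 528 FPKM in siCon) began lower with the knockdown. Mmp13 went from 34.7 to 0.662 FPKM there and from 125 to 1.37 in siCon. Except for Acta2, a smaller fall cannot be told apart from a lower start. 1 sample stood far from the others of its group: Wfdc12 was listed at 0 FPKM in siCon replicate 3 at 0 h and at 0.777 to 0.893 in the other libraries. The 60 groups of 4 of these 30 genes were examined for such gaps with Dixon's test at the 95% level, of which chance gives about 1 in 20.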

How the results depend on the processing

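No count of calls for 48 h against 0 h moved by over 1.5 times: it was 6434 and ranged from 5187 (mean FPKM of at least 5) to 6912 (replicate block), and from 6110 to 6320 with 1 library left out. Quantile normalization gave 3495 higher and 2981 lower, beside 3133 and 3301. The count beyond 2-fold (864) ranged from 659 (mean FPKM of at least 5) to 1144 (pseudocount 0.1). Among counts of calls, only the interaction with knockdown moved by more than that: with the replicate block it was 2799 (1354 higher, 1445 lower) beside 1659 (804 and 855), and from 1195 to 1980 with 1 library left out. Using siCon libraries 1 and 3 only, or 2 and 4 only, was chosen after seeing the data. Of 191 single genes followed, none reversed and 9 lost or gained a call under some alternative (Klra17, Sufu, Gli1, Gli2, Ywhaq, Ywhaz, Ywhae, Cox7a1 and Ppargc1a). The cause was not tested. The median log2 change of 23 of 38 lists moved under some alternative by more than the SD of that median over the 48 h libraries, and it changed sign under some alternative for 6 of the 38, among them cholesterol synthesis, the growth hormone axis, collagens and hedgehog signalling.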

Other observations

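The largest fitted rise of all was in a locus with no symbol, picked after its values were seen: it was listed at 0 in all 4 siCon libraries at 0 h and at 84.2, 93.9, 144 and 457 FPKM at 48 h. Klra17, a member of a family of natural killer cell receptors, had 1.19, 0.917, 1.05 and 1.26 FPKM at 0 h and 71.5, 1.40, 2.84 and 125 at 48 h, so its 2 high libraries were replicates 1 and 4, unlike the split of replicates 1 and 3 from 2 and 4 elsewhere.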
